A study of Mus musculus with 1646 samples.

Results

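The genes described here encode 10 matricellular and related secreted matrix proteins, *Tnc*, *Tnxb*, *Postn*, *Fn1*, *Sparc*, *Sparcl1*, *Thbs1*, *Thbs2*, *Thbs4* and *Vcan*. They were chosen by name and are 10 of the 46517 genes in a table of SmartSeq2 read counts from 1646 single cells of the mouse colon. SmartSeq2 is a plate-based method that sequences fragments along the whole transcript of each cell. The study asked how fibroblasts and mural cells (pericytes and smooth muscle cells, SMC, which cover vessels) differ within and between organs. Cells came from male mice aged 10 to 20 weeks of 4 reporter lines, which carry a fluorescent reporter under control of *Pdgfrb* (PdgfrbGFP, 46.2% of the cells, 4 plates), *Acta2* (Acta2GFP, 34.45%, 2 plates), *Pdgfra* (PdgfraGFP, 13.8%, 2 plates) or *Cspg4* (Cspg4dsRED, 5.53%, 1 plate). No treatment was applied, and cells carrying the endothelial protein CD31 were excluded at the sort. In the methods the PdgfraGFP reporter is named as an allele of *Pdgfra* itself, and the other reporters as transgenes. Per the methods, the sort took cells positive for a reporter or for an antibody to PDGFRα or PDGFRβ, some animals combined reporter strains, and elastase was added to the enzyme mix when cells of Acta2GFP mice were isolated. A line is therefore a choice of cells and of dissociation as well as a genotype, and these cannot be told apart. The labels name no mouse, so a reporter line was taken as the sample, and p-values measure the spread between lines, which may be technical. In the comparison of 2 lines, plates were the samples instead.

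Matricellular proteins are secreted into the extracellular matrix, where they bind collagens, growth factors, proteases and cell surface receptors and tune how cells attach to the matrix, more than they carry load themselves. Many are abundant in development and wound repair, and in the gut they are best known from the stroma beneath the epithelium and from healing or fibrotic tissue. Tenascin-C, encoded by *Tnc*, loosens the adhesion of cells to fibronectin, and tenascin-X, encoded by *Tnxb*, associates with collagen fibrils and is required for the strength of loose connective tissue. Periostin (*Postn*) binds integrins and promotes collagen cross-linking, and fibronectin (*Fn1*) is the adhesive glycoprotein on which many other matrix proteins assemble. SPARC (*Sparc*) binds collagen and acts in its deposition, and *Sparcl1* encodes its close relative hevin. The thrombospondins encoded by *Thbs1* and *Thbs2* bind the receptors CD36 and CD47 and restrain angiogenesis, *Thbs4* encodes a thrombospondin of muscle and tendon, and versican (*Vcan*) is a large proteoglycan that binds hyaluronan.

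Promoter sequences are shown for *Tnc*, *Tnxb* and *Thbs2*, because levels of these genes differed in opposite directions between fibroblasts of the crypt apex and of the crypt base. Each line gives the 250 bases before an annotated start site (for *Tnc* the first of 2) from RefSeq on GRCm38.p6, read 5′ to 3′ on the strand of the gene, and capitals mark matches to 5 searched motifs. The TATA box was searched as the letters TATAAA and the CCAAT box as its own letters. For the GC box the letters were GGGCGG, for the AP-1 motif TGANTCA, and for the TEAD motif GGAATG. Both strands were searched, and no match shown overlapped with another.
Tnc (chr4:64047016-64047265, minus strand): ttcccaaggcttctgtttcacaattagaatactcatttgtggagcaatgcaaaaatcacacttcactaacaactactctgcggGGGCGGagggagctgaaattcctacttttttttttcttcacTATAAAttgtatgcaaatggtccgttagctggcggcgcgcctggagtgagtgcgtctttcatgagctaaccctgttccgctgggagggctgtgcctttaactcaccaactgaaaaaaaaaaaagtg
Tnxb (chr17:34670285-34670534, plus strand): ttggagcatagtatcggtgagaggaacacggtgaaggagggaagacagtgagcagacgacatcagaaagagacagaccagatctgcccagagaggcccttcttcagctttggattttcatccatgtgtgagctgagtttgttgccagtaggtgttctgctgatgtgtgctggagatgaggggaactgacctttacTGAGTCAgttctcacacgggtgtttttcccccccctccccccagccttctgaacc
Thbs2 (chr17:14694263-14694512, minus strand): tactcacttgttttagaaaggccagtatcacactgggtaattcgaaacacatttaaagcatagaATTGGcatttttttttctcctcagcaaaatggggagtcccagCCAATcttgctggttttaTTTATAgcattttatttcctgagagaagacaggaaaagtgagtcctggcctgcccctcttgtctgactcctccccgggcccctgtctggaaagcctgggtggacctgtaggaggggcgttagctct
The *Tnc* sequence held a GC box and, nearer to the start, a TATA box. The *Tnxb* sequence held a match to the AP-1 motif, TGAGTCA, 55 to 49 bases before the start. The *Thbs2* sequence held 2 CCAAT boxes, the first on the reverse strand, and a TATA box on the reverse strand. Among 32851 start sites, sequences of the same length held the TATA box in 12.4%, the CCAAT box in 33.8%, the GC box in 32.7%, the AP-1 motif in 6.75% and the TEAD motif in 12.6% of cases. Matches are descriptions of the letters and not measured binding sites. RefSeq promoter entries were matched for 7 of the 10 genes, leaving *Fn1*, *Sparcl1* and *Thbs1*.

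Cells were compared by the 8 cluster numbers in the labels, under the anatomical names used by the study. Fibroblasts (1307 cells, 79.4%) comprised cluster 7 (crypt base, 13.55% of all cells), cluster 5 (base-middle, 25.8%), cluster 1 (middle, 29.3%), cluster 6 (middle-apex, 2.73%) and cluster 2 (apex, 7.96%). Mural cells (20.6%) comprised cluster 4 (pericytes, 8.63%), cluster 3 (vascular SMC, 8.57%) and cluster 8 (interstitial SMC, 3.40%). Interstitial SMC, counted here with the mural cells, were placed by the study in the mucosa away from vessels, so the class is wider than vessel-covering cells. The study located apex and base fibroblasts in tissue with *Tnc* and *Cd34*, so a high *Tnc* level in the apex cluster is part of how that cluster got its name. Leaving *Tnc* out, the apex markers *Il1rl1*, *Ptgs2* and *Foxl1* together reached 1314 to 1614 counts per 500000 in the lines of cluster 2 and at most 81.55 in every other cluster, while *Cd34* had 1051 to 1544 in cluster 7, 878 to 1174 in cluster 5, 533 to 712 in cluster 1 and at most 79.7 elsewhere, and so is not particular to the base cluster. In cluster 2 *Ptgs2* averaged 1093, *Il1rl1* 269.7 and *Foxl1* 145.8. The study reported *Foxl1* among genes enriched in apex fibroblasts of these data and stained the proteins of *Il1rl1* and *Ptgs2* to place the same cells. These marker sums therefore describe the name and do not test it. The summed fibroblast markers (*Pdgfra*, *Col1a1*, *Lum*, *Dcn*) lay at 2733 to 7777 in fibroblast clusters and at 112.1 to 1690 in mural clusters. Endothelial, immune and epithelial marker sums stayed at or below 100.1, 51.4 and 35.6 in every sum, but the study had removed cells with endothelial or immune signatures and cells without *Pdgfra* and *Pdgfrb* before deposit, so these low sums were in part set by that filter. Of 2 markers of interstitial cells of Cajal, *Ano1* averaged at least 170.8 in clusters 2, 3 and 4, whereas the defining marker *Kit* had 0.503, 8.85 and 0.026 and a count in 4.58%, 2.13% and 1.41% of their cells. Single cells held 47598 to 1494292 counts on genes (median 248628), and 21 sums of at least 10 cells of a cluster and line, holding 2202988 to 85478239 counts, entered the tests. Cluster 8 was represented by the Acta2GFP line alone. A level below is the mean over cells of the count scaled to 500000 counts per cell, computed per line and then averaged over lines.

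The 10 genes spanned a wide range of levels, and each had its own order of clusters. Expressed per kilobase of exon so that genes can be compared, *Sparc* had the highest mean level of the 10 in clusters 7, 5, 1, 6, 4 and 8 (305.7 to 613 per 500000 and kilobase), and *Sparcl1* in clusters 2 and 3 (480 and 992). *Sparc* ranked 17th among the 24251 genes with a count in cluster 7 by this measure. At the other end, *Thbs4* lay below 4 in all clusters. Between its highest and lowest cluster mean *Sparc* differed 3.14-fold and *Sparcl1* 6.27-fold, compared with 116.5-fold for *Tnc*, 107.4-fold for *Tnxb*, 70.8-fold for *Postn*, 50.9-fold for *Thbs2*, 47.3-fold for *Fn1*, 32.1-fold for *Vcan* and 16.97-fold for *Thbs1*. Among close relatives, the highest mean was in cluster 2 for *Tnc* and cluster 7 for *Tnxb*, in cluster 4 for *Sparc* and cluster 3 for *Sparcl1*, and in clusters 3 and 6 for *Thbs1* and *Thbs2*. Of these, the cluster with the highest mean was apart from the next for *Tnc* and *Sparcl1* and overlapped with it for *Tnxb*, *Sparc*, *Thbs1* and *Thbs2*.

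**Figure D1:**
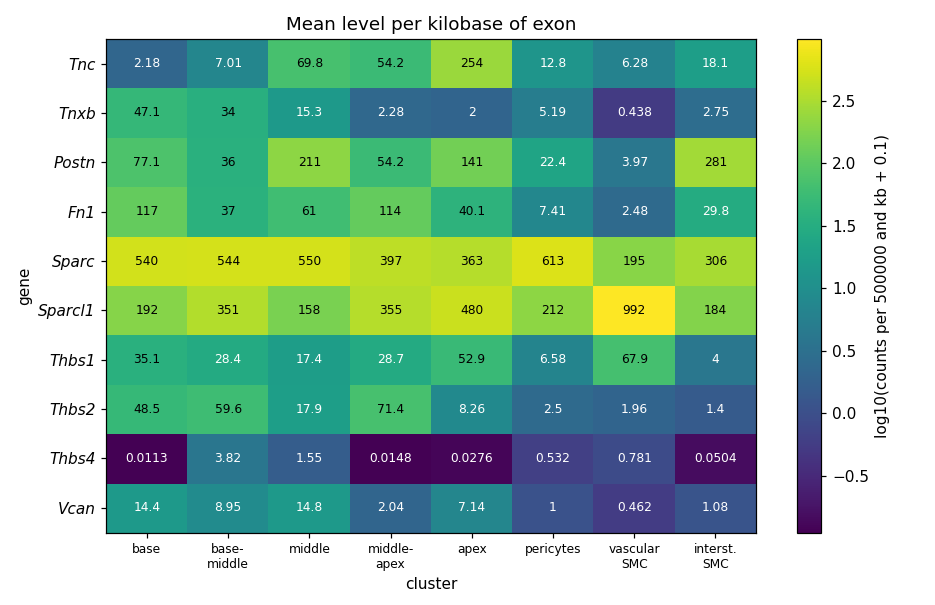
Mean level of each gene (rows) in each cluster (columns) per 500000 counts and kilobase of exon, averaged over reporter lines; colors follow the log10 of the level + 0.1 and the printed values are linear. The highest value of each column belongs to *Sparc* or *Sparcl1*, *Tnc* has its highest value in apex fibroblasts, and *Thbs4* stays below 4.

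*Tnc* lies at chr4:63959785-64047015 on the minus strand. In base fibroblasts its level was 11.8 in the Acta2GFP line, 6.97 in the PdgfraGFP line and 32.05 in the PdgfrbGFP line. In middle fibroblasts the same lines had 552, 546 and 529, and in apex fibroblasts 2092, 1973 and 1851. The lines lay close together in middle and apex fibroblasts and further apart, at low levels, in base fibroblasts, and the ranges of the 3 clusters did not overlap. Base-middle fibroblasts had 59.4, 0.87, 48.35 and 109.4 in the Acta2GFP, Cspg4dsRED, PdgfraGFP and PdgfrbGFP lines, a wide spread, and middle-apex fibroblasts had 353.4 (Acta2GFP) and 489 (PdgfraGFP). Both values lay below those of middle fibroblasts in the same lines, but the order differed between the PdgfraGFP plates, with 544.5 in middle-apex and 154.99 in middle fibroblasts on the first and 442.2 and 775 on the other. Mural levels were 46.7 and 152.5 in pericytes, 43.9 to 52.8 in vascular SMC and 140.6 in interstitial SMC. In order, the apex, middle and middle-apex clusters were apart from their neighbours, while interstitial SMC, pericytes, base-middle fibroblasts and vascular SMC each overlapped with the next of these 4. Base fibroblasts had the lowest mean and lay below vascular SMC, but within the wide range of base-middle fibroblasts.

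*Tnxb* (chr17:34670535-34719815, plus strand) ran the other way among fibroblasts. In base fibroblasts it had 371.95, 728 and 624 in the Acta2GFP, PdgfraGFP and PdgfrbGFP lines, and in base-middle fibroblasts 335.9, 585 and 552, with 187.7 in the Cspg4dsRED line. Middle fibroblasts of the former 3 lines had 127.6, 204.9 and 229.5, and apex fibroblasts 9.69, 8.88 and 54.7. All apex values were below all middle values, and all middle values were below all base values, whereas base-middle fibroblasts overlapped with both base and middle fibroblasts. Middle-apex fibroblasts (5.20 and 50.4) overlapped with the apex cluster. Pericytes had 73.01 and 53.7, interstitial SMC 33.6, and vascular SMC 12.6, 0.285 and 3.17 in the Acta2GFP, Cspg4dsRED and PdgfrbGFP lines, the lowest of all clusters.

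*Postn* (chr3:54361109-54391037, plus strand) was highest in interstitial SMC, at 2443 in their single line. Middle fibroblasts followed with 1974, 1931 and 1601 (Acta2GFP, PdgfraGFP, PdgfrbGFP), then apex fibroblasts with 1597, 949 and 1125. These 3 clusters did not overlap with each other, although the lowest middle and the highest apex line were almost equal. Base fibroblasts had 562 to 769, middle-apex fibroblasts 645 and 297.2, base-middle fibroblasts 197.9 to 401.9 and pericytes 173.8 and 215.5, each range overlapping the next. Vascular SMC had 86.4, 5.498 and 11.65 and lay below every other cluster. Periostin message was thus abundant in 1 of the 2 SMC clusters and scarce in the other.

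*Fn1* (chr1:71585520-71653200, minus strand) was highest in base and in middle-apex fibroblasts. Base fibroblasts had 1077, 1705 and 1330 in the Acta2GFP, PdgfraGFP and PdgfrbGFP lines, and middle-apex fibroblasts 965 and 1706 in the Acta2GFP and PdgfraGFP lines. The ranges of these clusters overlapped, and both lay above middle fibroblasts (640, 657 and 843). Apex fibroblasts had 409.7 to 541 and base-middle fibroblasts 453.7, 93.3, 650 and 535 in the Acta2GFP, Cspg4dsRED, PdgfraGFP and PdgfrbGFP lines. The low Cspg4dsRED value rested on 13 cells. Interstitial SMC had 347.7, pericytes 50.3 and 122.9, and vascular SMC 57.8, 6.68 and 22.4, so that *Fn1*, like *Postn*, was higher in interstitial than in all lines of vascular SMC.

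*Sparc* (chr11:55394500-55423183, minus strand) was detected in all 1646 cells. Pericytes had 2541 and 2105 in the Cspg4dsRED and PdgfrbGFP lines, and middle, base-middle and base fibroblasts ranged from 1633 to 2671, with overlap among all 4 clusters. In all 5 fibroblast clusters the Acta2GFP line had a higher *Sparc* level than the PdgfraGFP line, for example 2671 and 1663 in base and 1838 and 1181 in apex fibroblasts. Middle-apex fibroblasts had 1658 and 1347, interstitial SMC 1158 and vascular SMC 784, 545 and 891. *Sparcl1* (chr5:104079111-104113733, minus strand) was highest where *Sparc* was lowest. Vascular SMC had 3116, 3448 and 2179 in the Acta2GFP, Cspg4dsRED and PdgfrbGFP lines, followed by apex fibroblasts with 1549, 1407 and 1274 (Acta2GFP, PdgfraGFP, PdgfrbGFP), which lay below all vascular SMC lines. Middle-apex (1013 and 1073) and base-middle fibroblasts (678 to 1454, reaching into the apex range) came next, and pericytes, base fibroblasts, interstitial SMC and middle fibroblasts formed an overlapping group between 355.9 and 861. Per kilobase *Sparcl1* was the 11th highest gene of vascular SMC.

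*Thbs1* (chr2:118111876-118127133, plus strand) varied more between lines than between most clusters. Vascular SMC had 378.4, 687 and 171.9 in the Acta2GFP, Cspg4dsRED and PdgfrbGFP lines, and apex fibroblasts 150.2, 660 and 153.1 in the Acta2GFP, PdgfraGFP and PdgfrbGFP lines. In apex fibroblasts both PdgfraGFP plates were high (576 and 730), while the other 3 plates had 29.1 to 252.3. The remaining fibroblast clusters ranged from 56.7 to 300.7, of which middle fibroblasts (83.4 to 118.4) lay below base and middle-apex fibroblasts and overlapped with base-middle fibroblasts. In mural cells, pericytes (15.15 and 64.8) and interstitial SMC (24.3) lay below all fibroblast clusters except for the lowest base-middle line. *Thbs2* (chr17:14665500-14694235, minus strand) was a fibroblast message. Base fibroblasts had 338.9, 357.5 and 322.5, base-middle fibroblasts 675, 85.7, 560 and 348.9, and middle-apex fibroblasts 245.03 and 755, all overlapping. Middle fibroblasts (82.2, 155.1 and 139.4) and apex fibroblasts (61.1, 42.6 and 69.9) followed, without overlap with base fibroblasts or each other, although the Cspg4dsRED base-middle value lay within the middle range. The 3 mural clusters stayed between 9.74 and 24.4.

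*Thbs4* (chr13:92751590-92794818, minus strand) was close to undetected. Of its 2718 counts few were spread widely, since 95 cells had 1 to 3 counts each, and 9 cells with at least 100 per 500000 held 2456 counts (90.4%). Of these 9 cells, 7 belonged to cluster 5 and came from all 4 lines, 1 to cluster 1 and 1 to cluster 3. Cluster means ranged from 0.03715 in base to 12.55 in base-middle fibroblasts and the highest was set by such cells, whereas the 5 clusters other than 5, 1 and 3 held none of the 9, so no fold change is given for *Thbs4*. *Vcan* (chr13:89655312-89742509, minus strand) was present in most fibroblasts at moderate levels. Middle fibroblasts had 177.3, 281.7 and 184.98, base fibroblasts 177.5, 325.6 and 121.5, base-middle fibroblasts 72 to 228.2 and apex fibroblasts 92.4 to 111.1. Each of these ranges overlapped with the next. Middle-apex fibroblasts were lower (10.6 and 48.45) and overlapped with mural clusters, in which all lines lay between 0.681 and 28.3.

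**Figure D2:**
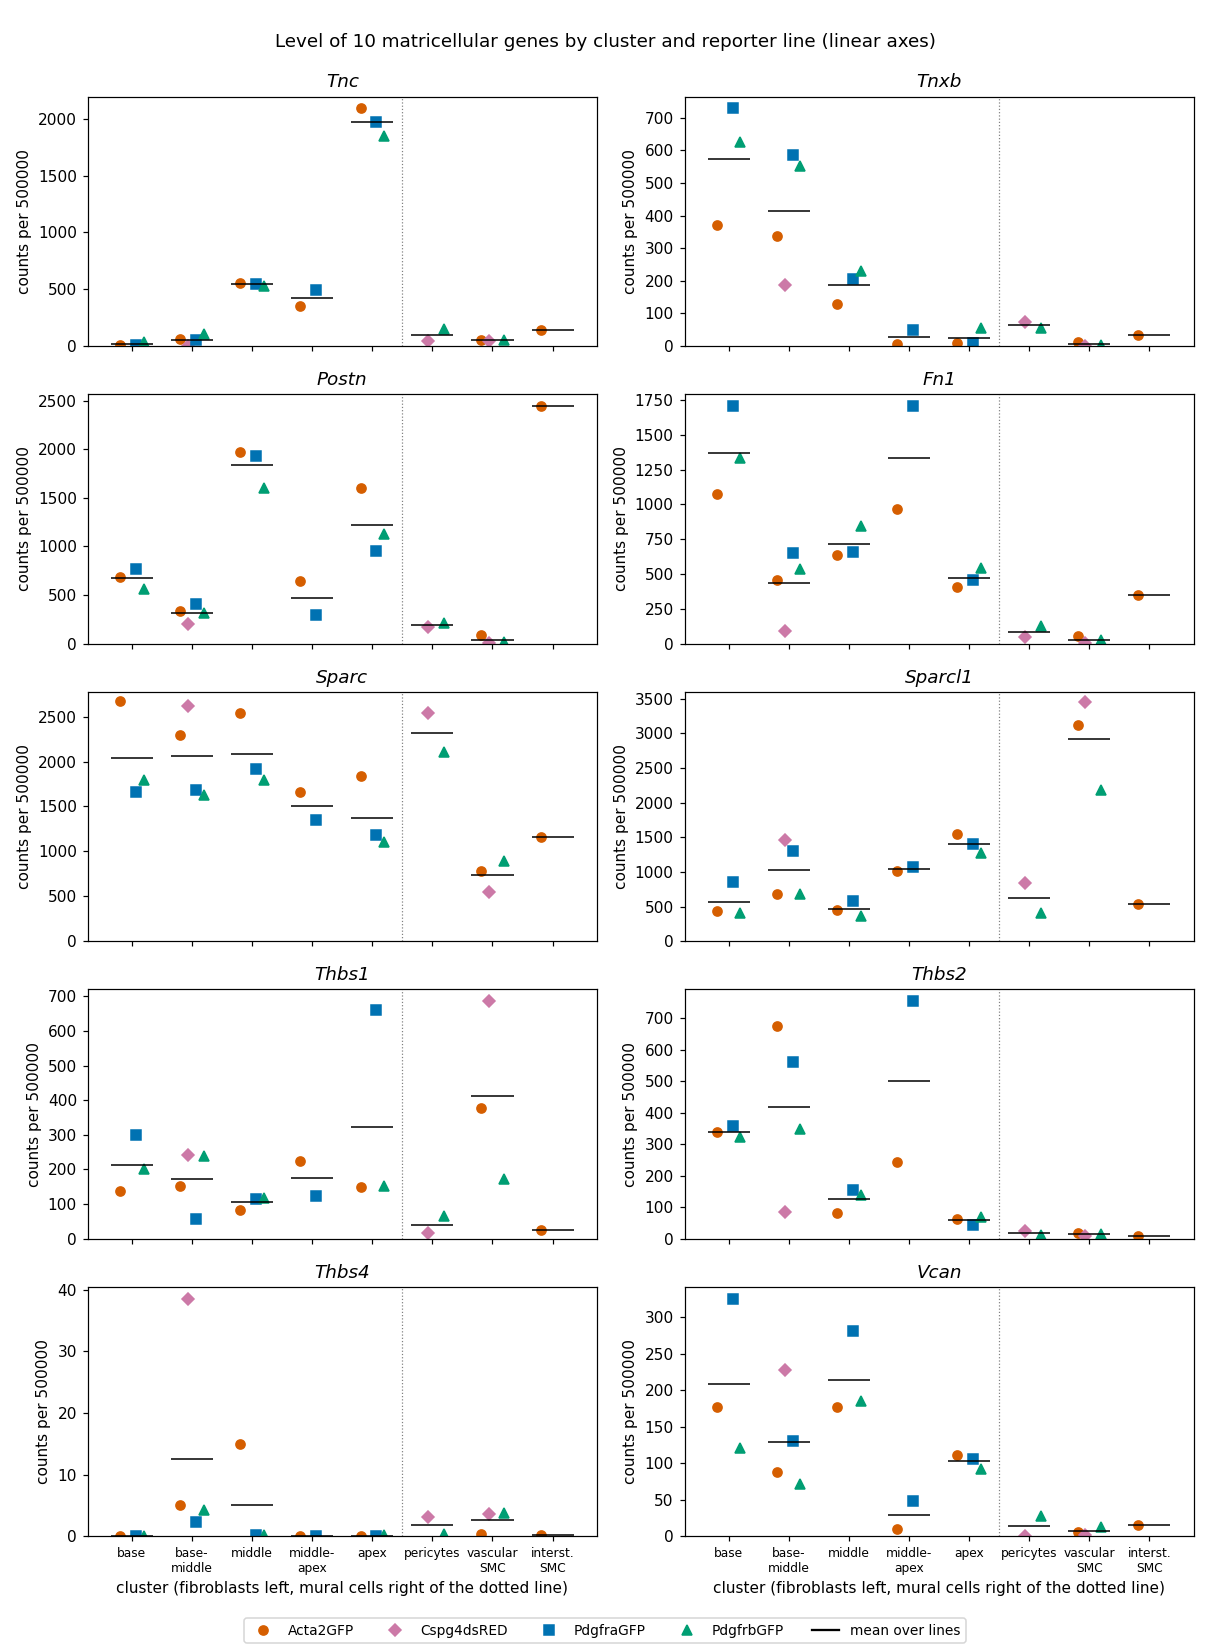
Level of each gene (counts per 500000, linear axes that differ between panels) by cluster, with 1 point per reporter line with at least 10 cells and bars for the mean over lines; the dotted line separates fibroblasts from mural cells. *Tnc* climbs to 1851 to 2092 in apex fibroblasts while *Tnxb* falls to 8.88 to 54.7, *Postn* stands at 2443 in interstitial SMC, and *Sparcl1* peaks at 2179 to 3448 in vascular SMC.

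The first comparison set the fibroblasts of 4 lines against the mural cells of 3 lines, with counts summed over cells in each line. Of the 10 genes, 6 differed, 5 higher in fibroblasts and 1 lower, whereas 6.57% of the 19173 genes tested differed (3.21% higher and 3.36% lower in fibroblasts). Because the authors' clustering used these counts, here and below the tests describe the clusters and are not independent of them. *Thbs2* had 308.3, 131.5, 325.4 and 240.8 in fibroblasts of the Acta2GFP, Cspg4dsRED, PdgfraGFP and PdgfrbGFP lines and 13.8, 17.4 and 11.9 in mural cells of the Acta2GFP, Cspg4dsRED and PdgfrbGFP lines. No line overlapped, and *Thbs2* was 15.95-fold higher in fibroblasts (log2 fold change 4.00 ± 0.43 SE, adjusted p = 0.00104). *Tnxb* had 233.8, 210.4, 282.2 and 394.2 in fibroblasts and 25.6, 38.4 and 31.5 in mural cells, again without overlap, a log2 difference of 3.46 ± 0.34 (adjusted p = 0.000587). *Vcan* had 144.2, 214.5, 171.7 and 125.3 in fibroblasts and 11.96, 0.949 and 21.15 in mural cells (4.07 ± 0.79, adjusted p = 0.0151). *Tnc* had 415.7, 254.3, 711 and 366.8 against 113.7, 45.4 and 112.7 (2.19 ± 0.40, adjusted p = 0.0112). *Fn1* had 691, 576, 797 and 773 against 236.96, 29.5 and 82.8 (2.84 ± 0.72, adjusted p = 0.0457). *Sparcl1* alone was higher in mural cells, with 618, 925, 1064 and 543 in fibroblasts and 1431, 2082 and 1171 in mural cells, a 2.32-fold difference (log2 -1.21 ± 0.30, adjusted p = 0.0402). For *Vcan*, *Tnc*, *Fn1* and *Sparcl1*, too, fibroblast and mural lines did not overlap. Each class sum mixes clusters in the proportions captured in that line. By cluster mean, *Sparcl1* stood at 2914 in vascular SMC but at 623.8 in pericytes and 538.9 in interstitial SMC. Among fibroblasts it was 563.6 in base, 1030 in base-middle, 465.1 in middle, 1043 in middle-apex and 1410 in apex cells. *Tnc* averaged 16.9 in base and 54.5 in base-middle fibroblasts, below pericytes (99.6) and interstitial SMC (140.6).

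*Postn* did not pass (log2 1.06 ± 0.79, adjusted p = 0.54). Its fibroblast lines had 1138, 815, 990 and 923, and its mural lines 1584, 93.7 and 160, of which the high Acta2GFP value contains the interstitial SMC. Without the Acta2GFP line, *Postn* was higher in fibroblasts (3.26, adjusted p = 0.00608). *Sparc* had 2430, 2502, 1586 and 1698 in fibroblasts and 1090, 1590 and 1556 in mural cells, which overlapped (0.59 ± 0.27, adjusted p = 0.25). With the reporter line as a block, 590 genes were called in place of 1259, and *Fn1* (adjusted p = 0.0875) and *Vcan* (adjusted p = 0.0954) were no longer among them. Without the PdgfrbGFP line, *Thbs2* and *Tnxb* were called and *Tnc* (adjusted p = 0.0807), *Fn1* (0.239), *Vcan* (0.0717) and *Sparcl1* (0.113) were not. *Fn1* also missed without the PdgfraGFP line (0.0775), *Vcan* without the Acta2GFP line (0.0845), and *Sparcl1* without the Acta2GFP (0.191) or Cspg4dsRED line (0.15). The log2 value of *Fn1* was 3.50 with the block and 4.08 without the Acta2GFP line, and that of *Vcan* 3.31 without the Cspg4dsRED and 4.82 without the PdgfrbGFP line.

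The genes around these 10 were counted in 3 lists, beside the 6.57% of all genes called. Of 16 other matricellular genes tested, 2 differed between fibroblasts and mural cells, both higher in fibroblasts, *Smoc2* (log2 5.84 ± 0.91), a SPARC-related calcium-binding matrix protein, and *Thbs3* (2.23 ± 0.39). The median of this list was 0.98, compared with -0.028 over all genes. Of 17 receptor genes for these proteins, 5 differed, 3 higher and 2 lower in fibroblasts (median 0.26), with the largest values for the integrin subunits *Itga8* (-8.65 ± 1.22), whose protein binds fibronectin and tenascin-C, and *Itga4* (-4.22 ± 0.69), a fibronectin receptor subunit. Of 11 hyaluronan and versican partners, 3 differed, 1 higher and 2 lower (median 0.18), among them the hyaluronan synthase *Has2* (5.53 ± 1.18) and the versican-cleaving protease *Adamts9* (-3.35 ± 0.72).

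Along the crypt axis, apex fibroblasts were compared with base fibroblasts, with 3 lines each. Of the 10 genes, 4 differed, 2 higher and 2 lower in the apex, against 3.66% of 21739 genes tested (2.12% higher and 1.55% lower). From the line values given above, *Tnc* was 114.7-fold higher in the apex cluster (log2 6.84 ± 1.05, adjusted p = 0.000614), which restates the placement of this cluster by *Tnc*. *Tnxb* was 21.5-fold lower (-4.43 ± 0.90, adjusted p = 0.00687) and *Thbs2* 4.03-fold lower (-2.01 ± 0.53, adjusted p = 0.0365). *Sparcl1* was 2.56-fold higher (1.36 ± 0.36, adjusted p = 0.0365). Each of these genes had all 3 apex lines on the same side of all 3 base lines. For *Fn1* the apex lines (409.7 to 541) also lay below the base lines (1077 to 1705), but the difference did not pass (-1.28 ± 0.75, adjusted p = 0.461), and neither did those of *Postn* (0.88 ± 0.56, 0.522) and *Vcan* (-0.79 ± 0.85, 0.791). A score of 16 immediate early and dissociation genes (mean log2 level) lay at 5.97 to 9.15 in the plates of apex fibroblasts and at 3.98 to 7.73 in those of base fibroblasts, and its part in these differences was not tested. Smooth muscle markers summed to 101.6 to 315.4 in apex and 11.03 to 108.6 in base lines. Pericyte markers summed to 15.1 to 38.4 and 1.38 to 14.7. Mural markers went the other way, with 0.475 to 22.1 and 46.1 to 66.9. The part of these markers was not tested either. *Thbs2* lost its call in 7 of 10 alternatives, while its log2 fold change stayed between -2.41 and -1.52. These included the reporter line as a block (adjusted p = 0.0528) and the fits without plate 075s (0.199) and without the Acta2GFP (0.283), PdgfraGFP (0.336) or PdgfrbGFP line (0.111). *Tnc* missed without the Acta2GFP line (0.0666), *Tnxb* without the PdgfraGFP line (0.0837), and *Sparcl1* without the Acta2GFP line (0.477), the PdgfrbGFP line (0.125) or plate 075s (0.0567) and with DESeq2 (0.0534). Without the PdgfrbGFP line the log2 values of *Tnc* and *Tnxb* were 7.99 and -5.76, and that of *Tnxb* was -5.11 without plate 075s.

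In this comparison, with 3.66% of all genes called, 6 of 18 other matricellular genes differed, 2 higher and 4 lower in the apex (median -0.23, compared with 0 over all genes). The CCN family genes *Ccn3* (-5.60 ± 1.24) and *Ccn4* (5.40 ± 1.12), which encode secreted regulators of growth factor and integrin signaling, moved in opposite directions. Of 17 receptors, 6 differed, 4 higher and 2 lower (median 0.84), with *Cd36* (6.45 ± 1.46), a thrombospondin receptor, and *Itga4* (5.25 ± 0.98) both higher in the apex. Of 11 hyaluronan and versican partners, 4 differed, 2 each way (median -0.45). The versican-cleaving proteases *Adamts5* (-7.44 ± 1.27) and *Adamts9* (5.78 ± 1.39) differed in opposite directions.

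**Figure D3:**
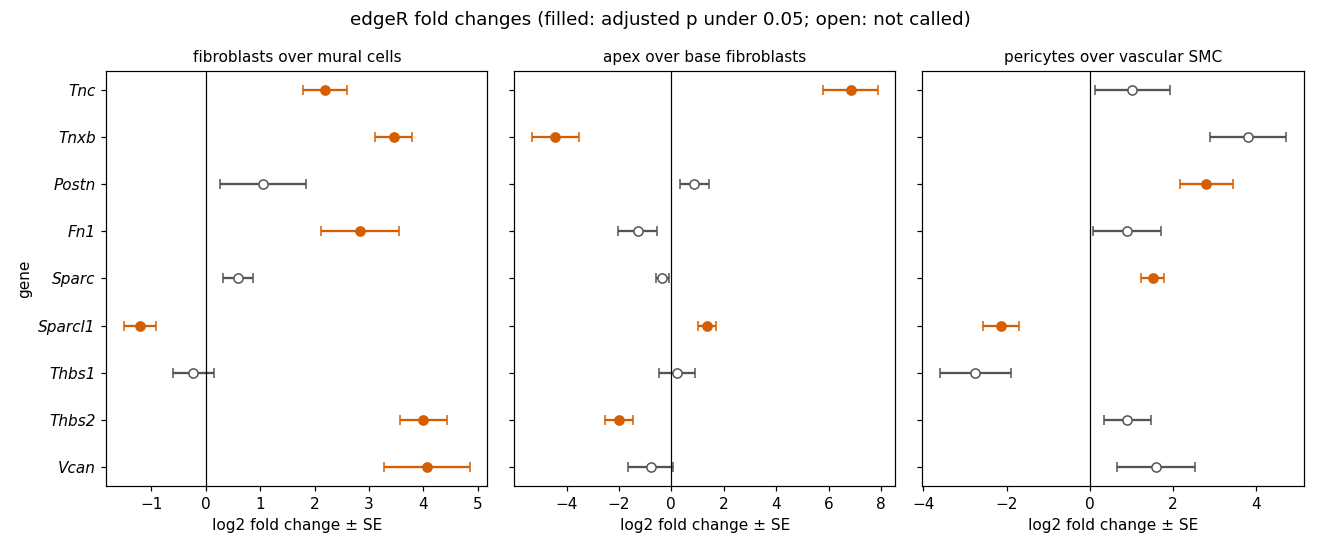
Log2 fold changes ± SE from edgeR for 9 genes in 3 comparisons; filled points passed an adjusted p of 0.05 and open points did not (*Thbs4*, with counts in few cells, is left out). *Tnc* and *Tnxb* lie on the same side in fibroblasts over mural cells (2.19 and 3.46) and on opposite sides in apex over base fibroblasts (6.84 and -4.43).

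Neighbouring positions were compared next. Between base-middle and base fibroblasts (4 and 3 lines) edgeR called 0 of the 10 genes and 0.0138% of all genes (3 of 21739). At an unadjusted p under 0.05 there were 3 of the 10 genes and 6.28% of all genes. DESeq2 called 1, *Thbs4*. *Fn1* was lower in all base-middle lines than in all base lines (log2 -1.50 ± 0.69, adjusted p = 0.784), and *Sparcl1* overlapped (0.76 ± 0.33, adjusted p = 0.783). Between middle and base-middle fibroblasts (3 and 4 lines) edgeR again called 0 of 10, and 0.184% of all genes. At an unadjusted p under 0.05 there were 4 of the 10 and 7.74% of all genes. *Tnc* was higher in all middle lines (529 to 552) than in all base-middle lines (0.87 to 109.4), as was *Postn* (1601 to 1974 and 197.9 to 401.9). The differences were 3.30 ± 0.79 for *Tnc* (adjusted p = 0.133), 2.15 ± 0.52 for *Postn* (0.145), -2.05 ± 0.51 for *Thbs2* (0.154) and -1.12 ± 0.34 for *Sparcl1* (0.343). On every plate with at least 10 cells of both, the dissociation score was lower in middle (3.07 to 7.69) than in base-middle cells (4.52 to 8.23). It was likewise higher in base-middle (4.55 to 8.23) than in base cells (3.98 to 7.73) on every such plate. Its part in these comparisons was not tested. DESeq2 called *Tnc* (0.00821) and *Thbs2* (0.0102), *Postn* passed without the Acta2GFP line (0.0297), and *Thbs2* passed without the Cspg4dsRED line (0.0112), in which it was low.

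From the middle to the apex (3 lines each), *Sparcl1* alone differed among the 10 genes, against 1.3% of all genes. It was 3.29-fold higher in apex fibroblasts (1.72 ± 0.36, adjusted p = 0.0193), with all apex lines (1274 to 1549) above all middle lines (355.9 to 586). The dissociation score was higher in apex than in middle cells on each of the 5 plates with at least 10 cells of both (5.97 to 9.15 in apex and 3.07 to 7.69 in middle cells). The sum of 3 pericyte markers lay at 15.1 to 38.4 in apex and 67.98 to 119.1 in middle lines. The part of either was not tested. *Tnc* also had all apex lines above all middle lines, and *Tnxb* all apex lines below, without passing (2.23 ± 0.85, adjusted p = 0.255, and -2.92 ± 0.84, adjusted p = 0.106). *Thbs1* differed by 1.90 ± 0.70 (adjusted p = 0.237). With the reporter line as a block 1.98% of genes passed in place of 1.3%, still including *Sparcl1*. The call for *Sparcl1* was lost without the Acta2GFP line (0.43), the PdgfraGFP line (0.0622) or the PdgfrbGFP line (0.0575), and *Tnxb* passed without plate 075s (0.0184) and with DESeq2 (0.0194). Other genes of the lists called here were *Ccn4* (4.80 ± 1.09), *Tgfbi* (4.42 ± 0.78), an integrin-binding collagen-associated protein, the hyaluronan receptor *Cd44* (3.84 ± 0.44), the heparan sulfate proteoglycan *Sdc4* (1.86 ± 0.28) and *Hapln1* (-7.39 ± 1.61), which links versican to hyaluronan. In all, 3 of 18 other matricellular genes (2 higher, 1 lower), 3 of 17 receptors (2 higher, 1 lower) and 1 of 11 partners differed.

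Middle-apex fibroblasts (2 lines) were compared with apex fibroblasts (3 lines), which share the apex sums with both comparisons above. Of the 10 genes edgeR called 0, against 0.957% of all genes, and 4 lay at an unadjusted p under 0.05, against 14.5% of all genes. *Thbs2* came nearest, with 245.03 and 755 in middle-apex and 42.6 to 69.9 in apex fibroblasts (2.34 ± 0.57, adjusted p = 0.0532), and DESeq2 called it (0.00386). The dissociation score lay at 3.92 and 4.53 on the middle-apex plates and at 5.97 to 9.15 on the apex plates, without overlap. The smooth muscle markers summed to 488.8 and 1454 in middle-apex and 101.6 to 315.4 in apex lines, led by *Acta2* (908.5 and 163.3 on average), and the pericyte markers *Abcc9*, *Kcnj8* and *Rgs5* to 203.4 and 211.5 against 15.1 to 38.4, with *Rgs5* itself at 3.01 and 4.74. The part of these in the differences was not tested. *Tnc* (-2.33 ± 1.00, adjusted p = 0.282) and *Vcan* (-2.34 ± 1.04, 0.3) were lower and *Fn1* (1.18 ± 0.81, 0.562) higher in both middle-apex lines than in all apex lines, without passing. Without the Cspg4dsRED line, which has no sum in either cluster but shares in the estimate of the spread, *Thbs2* (0.00612) and *Vcan* (0.0342) passed. Of the lists, 1 gene each was called, *Ccn2* (1.75 ± 0.38), *Sdc4* (-1.88 ± 0.32) and *Has2* (7.01 ± 1.53).

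Among mural cells, pericytes (2 lines) were compared with vascular SMC (3 lines). Of the 10 genes 3 differed, 2 higher and 1 lower in pericytes, against 0.819% of all genes (0.621% higher and 0.198% lower). *Sparc* was 2.87-fold higher in pericytes (1.52 ± 0.28, adjusted p = 0.0101) and *Postn* 7.02-fold higher (2.81 ± 0.63, adjusted p = 0.0357), whereas *Sparcl1* was 4.36-fold higher in vascular SMC (-2.13 ± 0.43, adjusted p = 0.0185). In each case no pericyte line overlapped with a vascular SMC line. *Tnxb* (3.81 ± 0.92, adjusted p = 0.0587) and *Thbs1* (-2.75 ± 0.86, adjusted p = 0.179) did not pass, and DESeq2 called both (0.00282 and 0.016). The summed fibroblast markers lay at 734 to 1690 in pericytes and at 112.1 to 655 in vascular SMC, so they moved with *Tnxb* and *Postn*. The dissociation score lay at 4.13 to 4.30 on the pericyte plates and at 6.72 to 7.98 on the vascular SMC plates. The part of either in these differences was not tested. In pericytes the median cell had 7.57 per 500000 of *Postn* and 1.68 of *Tnxb*, and the top 10% of cells held 67.4% and 69.1% of the level. Without the PdgfrbGFP line, *Sparc*, *Postn* and *Sparcl1* all missed, and without the Cspg4dsRED line *Sparc* and *Postn* did. Each of these fits left 1 pericyte sum and took its spread from other clusters. Over the alternatives the log2 value was 1.14 to 1.89 for *Sparc* and -2.65 to -1.78 for *Sparcl1*. *Postn* also missed without the PdgfraGFP line (0.0708) and *Sparcl1* without the Acta2GFP line (0.112), while *Tnxb* passed without the Acta2GFP line (0.0229) or plate 075s (0.0331). The log2 value of *Postn* ran from 2.18 without the PdgfrbGFP line to 4.72 without the Acta2GFP line, and was 3.72 with the reporter line as a block. Of the lists, 1 of 18 other matricellular genes, *Fstl1* (1.37 ± 0.29), and 3 of 17 receptors, all higher in pericytes and led by *Cd44* (3.15 ± 0.45) and *Egfr* (2.57 ± 0.58), differed, and none of 11 partners.

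Interstitial SMC had 1 line, whose spread the test took from the other clusters, and were compared with the same 3 vascular SMC lines. *Postn* differed, against 1.01% of all genes. It was 99.8-fold higher in interstitial SMC (6.64 ± 0.76, adjusted p = 9.69e-05), and the spread of that group was not measured. Over 9 alternatives, most of which use the same interstitial sum, the log2 value was 6.15 to 7.06. The alternative without the Acta2GFP line could not be run, since it removes the cluster. The summed fibroblast markers also stood higher in interstitial SMC (1051) than in vascular SMC (112.1 to 655), and the dissociation score lay at 6.29 and 6.39 on their plates, below the 6.72 to 7.98 of vascular SMC. The part of either was not tested. *Sparcl1* (-2.15 ± 0.57, adjusted p = 0.0808), *Fn1* (2.99 ± 0.95, 0.176), *Tnxb* (3.29 ± 1.02, 0.163) and *Thbs1* (-3.18 ± 1.19, 0.301) did not pass. With the reporter line as a block, *Sparcl1* passed (-2.04, 0.00753). Within the Acta2GFP line itself *Postn* stood at 2443 in interstitial and 86.4 in vascular SMC, and *Sparcl1* at 539 and 3116. Of the lists, 3 of 18 other matricellular genes were higher, led by *Spock3* (9.98 ± 2.11), a secreted proteoglycan related to SPARC, and *Tgfbi* (4.84 ± 0.89), as were 2 of 17 receptors, *Itgb3* (5.06 ± 0.99), an integrin subunit that binds periostin and fibronectin, and *Cd44* (4.41 ± 0.51).

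The 2 lines with most cells were compared within cluster 5, the Acta2GFP line on 2 plates against the PdgfrbGFP line on 4. Here the samples were plates, so p-values measure the spread between plates, which may share mice. By edgeR 0 of 15451 genes differed (0%), with 3.18% at an unadjusted p under 0.05, and 0 of the 10 genes, with 1 at an unadjusted p under 0.05. DESeq2 called 56 genes and none of the 10. *Sparc* differed by 0.79 ± 0.33 on the log2 scale (mean over plates 2543 and 1685) and *Thbs2* by 1.76 ± 0.91 (659 and 217.3), both with an adjusted p of 1. For *Thbs2* the 2 Acta2GFP plates had 621 and 696, and the PdgfrbGFP plates 361.4, 421.01, 30.3 and 56.3, without overlap. In cluster 1 the difference in *Thbs2* between these lines was -0.33.

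Single cells showed how the cluster levels arose. A level of at least 100 per 500000 is called high below, and the share of high cells is used because the share with any count depends on depth. For *Tnc*, 2.69% of base fibroblasts (6 cells) were high, as were 15.1% of base-middle (64 cells), 53% of middle and 73.3% of middle-apex fibroblasts (33 of 45 cells) and all apex fibroblasts. The cluster mean was nonetheless lower in middle-apex than in middle fibroblasts. The Cspg4dsRED base-middle fibroblasts held 0 high cells among 13, with a highest value of 7.42. *Tnxb* was high in 92.8%, 87.3%, 55.9%, 13.3% and 5.34% of the same clusters in that order. *Postn* was high in 99.2% of middle fibroblasts and in 56 of 56 interstitial SMC, but in 7.09% of vascular SMC. *Fn1* was high in 45 of 45 middle-apex and 98.7% of base fibroblasts, and *Sparc* in at least 97.9% of the cells of every cluster. *Thbs2* and *Thbs1* were patchy everywhere, with at most 55.6% and 49.65% of cells high in any cluster, and 38.9 to 60.4% of the level of *Thbs2* in each fibroblast cluster other than the apex came from the top 10% of cells. In the apex those cells held 65.2%.

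**Figure D4:**
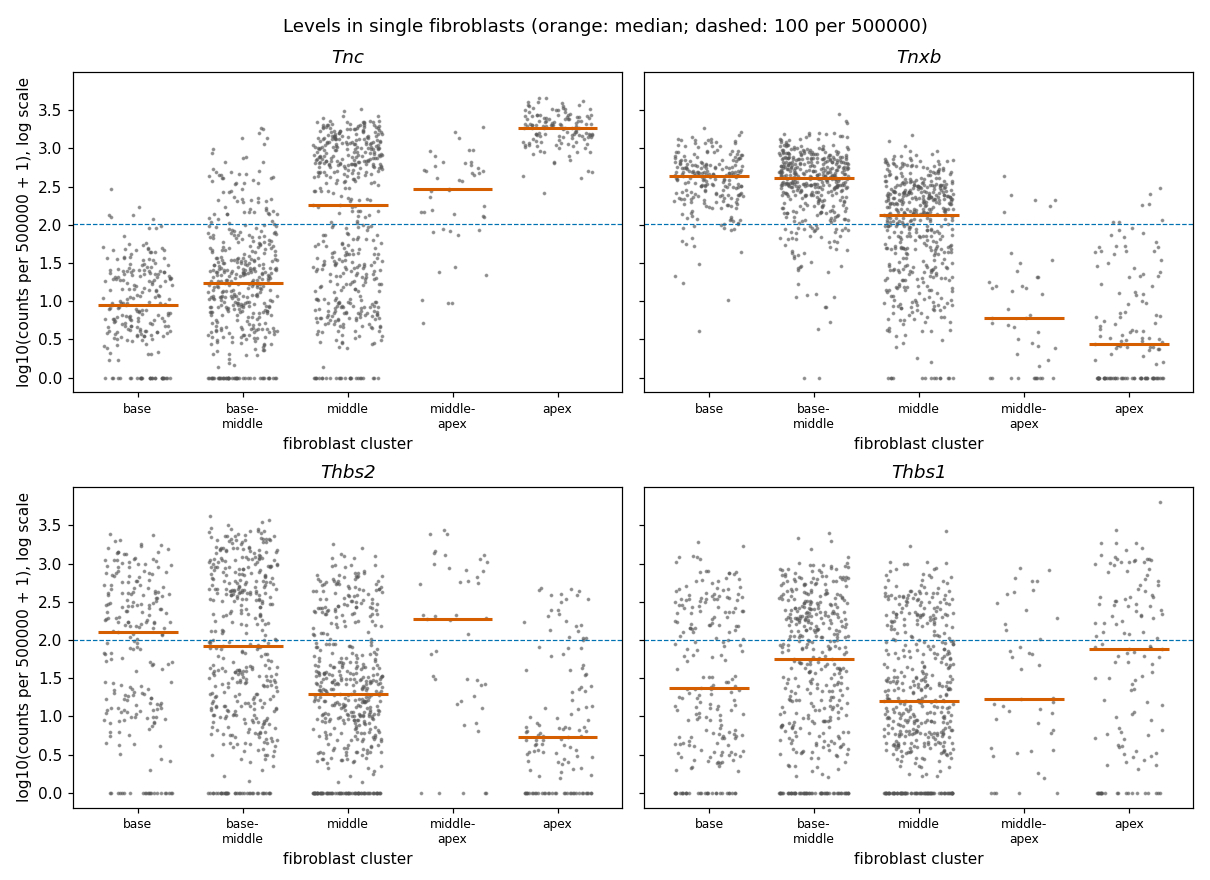
Level of *Tnc*, *Tnxb*, *Thbs2* and *Thbs1* in each fibroblast (log10 of counts per 500000 + 1, log scale) by cluster; bars are medians over cells and the dashed line is 100 per 500000. In middle fibroblasts *Tnc* forms a lower and an upper group with 8.70% of cells between 50 and 200, and all apex fibroblasts lie above the dashed line.

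Middle fibroblasts were spread widely in *Tnc*, with quartiles of 10.4, 182.4 and 920 per 500000. Of these cells 24.8% lay below 10 and 8.70% (42 cells) between 50 and 200, the range around the threshold. The share of high cells was 52.3% in the Acta2GFP line, 53.8% in the PdgfraGFP line and 54.2% in the PdgfrbGFP line, which lay close together. Between plates of 1 line it varied more, with 20.8% and 73.2% on the PdgfraGFP plates. *Thbs2* was high in 39.1% of *Tnc*-high and in 6.61% of the other middle fibroblasts. By line the shares were 30.8% and 7.23% (Acta2GFP), 48.6% and 3.33% (PdgfraGFP) and 42.2% and 7.41% (PdgfrbGFP), and the direction was the same on 7 of 8 plates. *Thbs1* was high in 38.5% and 8.43%, 34.3% and 10% and 33.6% and 17.6% of the cells of these lines, in the same direction on 8 of 8 plates. *Tnxb* went the other way, with 27.5% and 60.2%, 45.7% and 66.7% and 60.2% and 72.2%, on 7 of 8 plates. *Sparcl1* was also high less often among *Tnc*-high cells, with 70.3% and 79.5%, 68.6% and 83.3% and 62.5% and 71.3%, on 6 of 8 plates. *Vcan* was so in each line but higher on 4 and lower on 4 plates, and *Fn1* was split 4 and 4 as well. *Postn* was high in nearly all cells of both kinds (98.15 to 100% by line). Within plates the dissociation score of middle fibroblasts had a mean Spearman correlation of 0.22 with *Thbs1*, 0.16 with *Sparcl1* and 0.15 with *Tnc*. With *Thbs2* it was 0.10 and with *Tnxb* -0.10, and the part of the score in these shares was not tested. *Tnc*-high cells were shallower in each line (median counts 142859 and 188248, 184889 and 586691, 247098 and 288630), and the part of depth in these shares was not tested. These shares describe cells split by a measured level, so they carry no test.

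**Figure D5:**
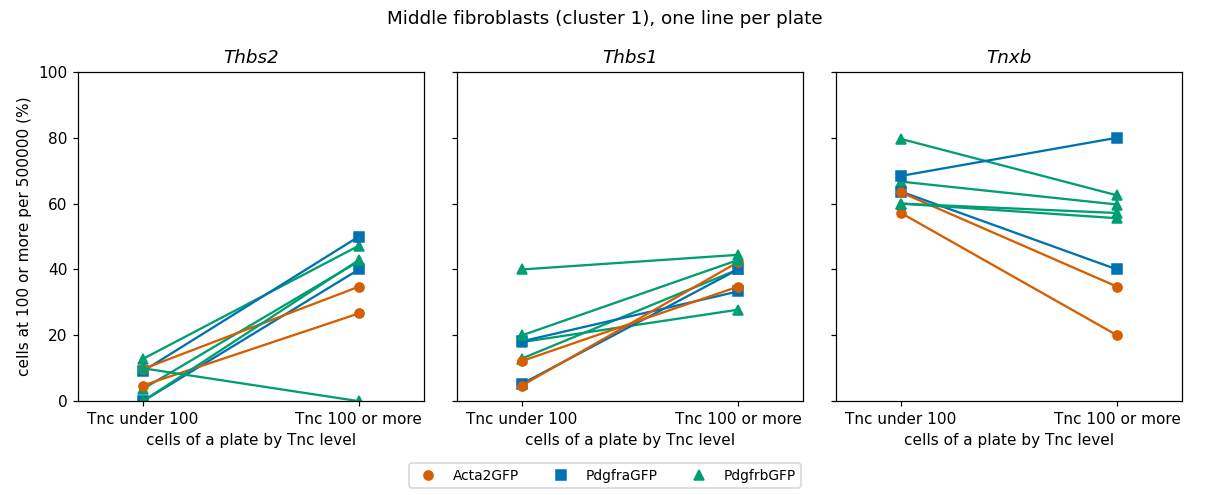
Share of middle fibroblasts (%) at 100 or more per 500000 of *Thbs2*, *Thbs1* and *Tnxb*, among cells with *Tnc* under 100 (left) and at 100 or more (right); each line joins the values of 1 plate and colors give the reporter line. *Thbs2* is higher on the right on 7 of 8 plates and *Thbs1* on 8 of 8, while *Tnxb* is lower on 7 of 8.

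The same shares are given for other clusters as a description, with no test between clusters. In base-middle fibroblasts *Thbs2* was high in 50% of *Tnc*-high and 47.4% of other cells, and *Tnxb* in 89.1% and 86.98%. In middle-apex fibroblasts *Thbs2* was high in 57.6% of *Tnc*-high and 50% of other cells. In the base-middle cluster *Thbs2* was high in 48.4% of *Thbs1*-high and 47.3% of other cells. *Postn* and *Fn1* were both high in 86.75% of middle and 87.9% of base fibroblasts.

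Low counts of these genes in clusters with a low level were described in relation to the plate layout. Within plates, the raw *Tnc* count of a base fibroblast had a mean Spearman correlation of 0.56 (4 plates) with the summed *Tnc* counts of the other wells in its row and column, and that of a base-middle fibroblast 0.43 (5 plates). In apex fibroblasts the value was -0.07 (3 plates) and in middle fibroblasts 0.09 (6 plates). *Fn1* (0.66, 74 cells) and *Tnxb* (0.59, 32 cells) had high values in vascular SMC, where their levels were lowest, and *Tnxb* had 0.01 in base fibroblasts, where it was highest. This did not hold for *Sparc*, with 0.21 to 0.29 in base, base-middle, middle and apex fibroblasts. In vascular SMC, its lowest cluster, *Sparc* had 0.25. *Thbs2* had 0.40 in middle fibroblasts. Wells of a row or column share an index and a plate, and the part of reads passed between wells in low levels was not tested. Folds against the lowest clusters, such as that of *Tnc* over base fibroblasts, rest on such low counts.

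Genes with a pattern like that of each member other than *Thbs4* were taken by Pearson correlation of log2 cluster means over the 8 clusters, among 4253 genes with at least 50 per 500000 in some cluster. Nearest to *Tnc* were *Nrp2* (r = 0.937) and *Snai1* (0.923), and nearest to *Tnxb* were *Tnfaip6* (0.988) and *Nrbp1* (0.98). *Nrp2* went from 13.97 in base to 213.6 in apex fibroblasts, and *Tnfaip6*, a hyaluronan-binding protein, from 59.97 to 7.13. For *Postn* they were *Cmtm7* (0.966) and *Ppic* (0.949), for *Fn1* *Gm44170* (0.973) and *Emp3* (0.972), for *Sparc* *Col5a3* (0.956) and *Rora* (0.931), and for *Sparcl1* *Tob1* (0.924) and *Ociad1* (0.91). For *Thbs1* they were *Puf60* (0.974) and *Arfgap1* (0.932), for *Thbs2* *Prnp* and *Steap3* (both 0.975), and for *Vcan* *Naaa* (0.982) and *Ecm1* (0.981). The 8 points share cells, libraries and depth, and the highest of 4253 correlations is high by selection.

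Genes on the opposite strand share exonic bases with 4 members, and no source says whether strand was used in counting. These were *8030451A03Rik* with *Tnc* (5968 counts against 370578), *Apol7d* with *Fn1* (8954 against 669309), *Gm29233* with *Thbs1* (9063 against 193101) and *Cyp21a2-ps* with *Tnxb* (3 bases). Reads in the shared bases cannot be assigned to a strand.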

How the data were processed

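Read counts of 1646 colon cells from 4 reporter lines and 9 plates were analysed, and the line, plate, well and cluster of each cell were taken from the labels. The authors demultiplexed the reads (bcl2fastq), trimmed adapters, mapped to GRCm38 with TopHat2 and Bowtie, removed what the methods call doublets with samtools and low-quality cells with set limits, dropped cells lacking *Pdgfra* and *Pdgfrb* or with other cell types' signatures, and deposited raw counts per gene and cell made with featureCounts. All columns were used. The 92 ERCC spike-in rows (1.36% of counts) entered neither library sizes nor tests. Of 46517 genes, 46005 had a symbol in GENCODE vM21, from which positions and exonic lengths were taken. The protocol has no molecular identifiers, so reads of 1 molecule cannot be told from reads of several.

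The members and gene lists were chosen with earlier results of these data known. For each line, counts of all cells in a cluster or class were added up (at least 10 cells, 21 cluster sums). After filterByExpr and TMM scaling, these sums entered the quasi-likelihood test of edgeR (edgeR 4.0.16, R 4.3.3), with Benjamini-Hochberg adjustment over all genes tested and a threshold of 0.05. All 10 members passed the filter in all 9 comparisons. All cluster comparisons came from 1 fit and share sums with each other. The code was tested on simulated data. The SE of a log2 fold change was derived from its F statistic. Alternatives were DESeq2 1.42.0, no filter, a line block, at least 3 cells per sum, plates as samples, each line left out and plate 075s left out. Named genes are all members, the 2 genes most like each over the cluster means, and the 2 called genes of each list with the largest fold change. The genes most like *Thbs4* are not reported here.

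Fibroblasts and mural cells of a line were sorted onto that line's plates, and deviations of same-line fibroblast and mural sums from their group means were correlated in 3 of 3 pairs (r 0.152 to 0.175), against -0.132 to 0.0656 for different lines. The line thus pairs these sums, but the reported fit has no block, and the blocked fit is an alternative. Of the cluster comparisons, apex against middle had all 3 same-line pairs over 0.1 (0.104 to 0.137), so the line pairs these sums too. Elsewhere at least 1 same-line pair lay under 0.1 or fewer than 3 pairs existed, so the line is not shown to pair those sums, although all 43 same-line pairs between clusters were positive (0.0185 to 0.215). Blocked values are given where they change a call.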

Additional observations from a re-analysis of the deposited data

Results flagged for a closer look

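In groups of 4 to 10 samples, 30 sets of line or plate values were checked for a value far from the others, and 2 were found, where chance gives about 1 in 20. Both concern *Thbs4* in base-middle fibroblasts. Among the 4 lines the Cspg4dsRED line had 38.5 per 500000 and the others 2.35 to 5.13, a gap of 0.923 of the whole range. Among the 4 PdgfrbGFP plates, 1 plate had 30.9 and the others 0.0787 to 4.17, a gap of 0.867 of the range. Each value rests largely on 1 cell, with 46 counts on the Cspg4dsRED plate and 786 counts on the PdgfrbGFP plate.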

How the results depend on the processing

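Over the alternatives, the 15 calls for members were repeated in 77.9% of refits, missed the threshold in 22.1% (33 refits) and never changed direction. Among uncalled differences given above, 84.4% of refits stayed uncalled, 39 passed and 1 reversed, *Thbs2* between lines in cluster 1 (-0.33). Leaving out each line gave 2 to 5 of the 10 members for fibroblasts against mural cells (6 with all lines), 1 to 4 for apex against base (4), 0 to 0 for base-middle against base (0), 0 to 1 for middle against base-middle (0), 0 to 1 for apex against middle (1), 0 to 2 for middle-apex against apex (0), 0 to 3 for pericytes against vascular SMC (3), 1 to 1 for interstitial against vascular SMC (1), and leaving out each plate 0 to 0 for the line comparison (0). Leaving out a line left 1 sum for pericytes (PdgfrbGFP or Cspg4dsRED) and for middle-apex fibroblasts (Acta2GFP or PdgfraGFP). Their spread then came from other clusters. Other counts are given where they differ from the reported one by over 1.5 times. DESeq2 called 1 member for base-middle against base (0.856% of all genes), 2 for middle against base-middle (1.4%), 3 for apex against middle (4.99%), 1 for middle-apex against apex (8.97%), 5 for pericytes (5.57%) and 3 for interstitial SMC (5.14%) against vascular SMC. Without a filter the counts were 2 for middle against base-middle, 2 for apex against middle, 1 for middle-apex against apex and 2 for interstitial against vascular SMC. With at least 3 cells per sum they were 1 for middle against base-middle and 4 for interstitial against vascular SMC. With plates as samples they were 2 for middle against base-middle, 4 for apex against middle, 1 for middle-apex against apex and 5 for interstitial against vascular SMC. Without plate 075s they were 2 for apex against base and 2 for apex against middle. With the replicate block by line, smaller changes included, they were 4 for fibroblasts against mural cells, 3 for apex against base and 2 for interstitial against vascular SMC, and the block changed no other call of a member. Over all genes tested, the share called ran over the alternatives from 1.81 to 16.1% for fibroblasts against mural cells (6.57% as reported), 0.7 to 8.55% for apex against base (3.66%), 0 to 0.856% for base-middle against base (0.0138%), 0.0284 to 2.36% for middle against base-middle (0.184%), 0.0378 to 5.59% for apex against middle (1.3%), 0.0236 to 8.97% for middle-apex against apex (0.957%), 0.226 to 5.57% for pericytes (0.819%) and 0.485 to 5.14% for interstitial SMC (1.01%) against vascular SMC, and 0 to 0.362% between lines (0%), lowest with a line left out and highest with DESeq2 or plates as samples, except between lines. The causes were not tested. Levels counted as moved in 14 of 80 cases when all cells were averaged and in 22 of 80 as shares of summed counts. A level moved if it changed by more than the spread (SD) between lines. Cluster 8, with 1 line, has no such spread, so any change counted and all its levels are among those cases. Shares of cells with a count moved in 49 of 80 when cells were thinned to 50000 counts. With 1 to 4 lines a group, differences that did not pass are not shown to be absent.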
